A study of Mus musculus with 18 samples.

Results

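RNA was sequenced from dorsal root ganglia of mice without importin alpha3 (KO) and of wild-type (WT) mice, both taken 7 d after spared nerve injury (SNI). The comparison used 3 KO libraries (ko_420, ko_422 and ko_426) and 3 WT libraries (wt_409, wt_410 and wt_416), 6 of the 18 libraries of the series, and covered every gene, 19010 of which were tested. The other libraries came from naive mice (4 WT and 4 KO) and from mice 2.5 months after SNI (1 WT and 3 KO). The naive libraries serve here as a second, uninjured comparison of the genotypes that shares no library with the injured ones. Strain, age, sex, the kind of knockout allele, the number of ganglia or animals in a library and any sham operation were not stated in the labels used here, so a p-value here refers to variation among libraries and not with certainty among animals. The question is what the loss of importin alpha3 changes in the ganglion while the injury response is under way.

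Dorsal root ganglia hold the cell bodies of sensory neurons, wrapped by satellite glia, together with Schwann cells, vessels, fibroblasts and macrophages. In SNI, branches of the sciatic nerve are cut and another is spared, and the spared skin becomes hypersensitive. Cut axons send signals back to the cell body, which switches on injury transcription factors such as Atf3 and Jun and then growth-associated genes and neuropeptides. Importin alpha proteins are adaptors that bind a nuclear localization signal on a cargo and carry it into the nucleus with importin beta. Importin alpha3 is encoded by Kpna4. The transcription factor cFOS, named with it in the study's title, pairs with Jun proteins as AP-1.

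The 6 libraries held 12565448 to 14157742 counts, and levels are given as CPM, counts brought to a common library size, in the order ko_420, ko_422, ko_426 and then wt_409, wt_410, wt_416. The Y-linked gene Ddx3y was between 25.3 and 42.8 CPM in all of them. The 15 pan-neuronal markers tested summed to between 16969 and 26964 CPM. Library ko_422 stood apart from the others. Its levels, relative to the mean of the 6, had a slope of -0.894 on the log2 scale per 10-fold exon length, whereas the slope in the other 5 lay between -0.131 and 0.282. It had the lowest voom quality weight, 0.146 against 0.506 to 1.504. Ribosomal protein, macrophage and red blood cell genes were high in it and channel genes low. Library wt_410 was low in endothelial, red blood cell and neutrophil genes and high in nociceptor genes. Values without ko_422 or wt_410 are given beside the results that turn on them; the part of library quality in those results was not tested.

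**Figure D1:**
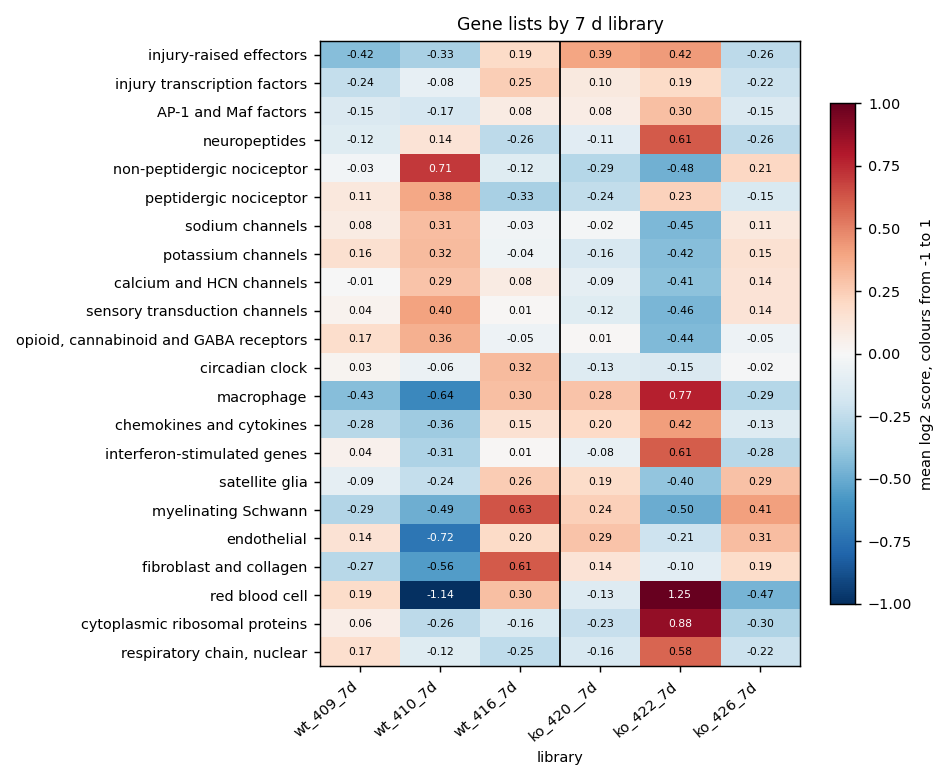
Mean log2 score of 22 gene lists in each 7 d library (columns; WT left of the line, KO right). A score is the mean over members of log2(CPM + 0.5), less the mean of the 6 libraries. Macrophage genes stood at 0.77 in ko_422 and -0.64 in wt_410, and injury-raised effectors were high in ko_420, ko_422 and wt_416.

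Kpna4 (ENSMUSG00000027782, chromosome 3, 69067149 to 69127113, minus strand, GRCm38) was the only gene called at 7 d by edgeR's quasi-likelihood test at a Benjamini-Hochberg adjusted p under 0.05. It stood at 2.67, 3.57 and 2.42 CPM in KO and 116, 125 and 119 CPM in WT, so the labels and the targeted gene matched in all 6 libraries. KO held 2.41% of the WT mean, and the log2 difference, KO minus WT, was -5.38 ± 0.39 (SE, adjusted p = 2.14e-06). That single call is 0.00526% of the genes tested. The residual reads numbered 37, 45 and 31 in the KO libraries.

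The other importin alpha genes, which encode adaptors able to share cargo with importin alpha3, showed no call. Kpna1 stood at 139, 103 and 115 CPM in KO and 121, 123 and 103 CPM in WT, a log2 difference of 0.04 ± 0.12 with a 95% interval of -0.22 to 0.30. Kpna3, in the same subfamily as Kpna4, was at 105, 71.4 and 77.1 CPM in KO and 69.8, 80.8 and 73.9 CPM in WT, a difference of 0.17 ± 0.14 (interval -0.12 to 0.47). Kpna6 differed by -0.18 ± 0.16. Kpna2 was low throughout, at 4.61, 4.05 and 4.22 CPM in KO and 3.16, 2.63 and 3.46 CPM in WT. Its libraries did not overlap, but the difference of 0.48 ± 0.27 had an unadjusted p of 0.091, and in naive mice it was -0.19 ± 0.23. Intervals for Kpna1 and Kpna3 exclude a rise of 2-fold. Among the 18 importin beta and exportin genes tested, 0 were called and 1, the exportin Xpo7, had an unadjusted p under 0.05: it differed by -0.29 ± 0.11, and by -0.17 without ko_422 (unadjusted p = 0.0844).

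Around Kpna4, 16 other genes were tested within 1 Mb, and 5 had an unadjusted p under 0.05 (8.44% of all genes tested did), 3 higher and 2 lower in KO. Gm37558 is a gene model inside the span of Kpna4 on the same strand (chromosome 3, 69119742 to 69122724). It stood at 1.08, 0.635 and 0.938 CPM in KO and at 0, 0 and 0.154 CPM in WT, and its reads cannot be told apart from other transcripts of the Kpna4 locus. It was not called (adjusted p = 0.241), but passed without wt_416 (adjusted p = 0.0330). In naive mice, where it averaged 1.17 CPM in KO and 0.0133 CPM in WT, it was 1 of the 5 genes called (edgeR adjusted p = 0.000434). Its fitted difference there of 5.88 ± 0.68 on the log2 scale rests on a WT level near 0 and depends on the prior count. Trim59, a RING-finger ubiquitin ligase on the same strand (chromosome 3, 69035288 to 69044755), stood at 4.76, 4.37 and 5.32 CPM in KO and 2.13, 2.70 and 1.92 CPM in WT. The Trim59 libraries did not overlap, with a log2 difference of 1.09 ± 0.25 (edgeR adjusted p = 0.352, DESeq2 adjusted p = 0.0493). In naive mice Trim59 differed by 0.68 ± 0.21 (unadjusted p = 0.0048).

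Apart from Kpna4, differences between the genotypes were small or uncertain. Without adjustment, 865 genes (4.55%) had p under 0.05 higher in KO and 739 (3.89%) lower, and libraries did not overlap for 836 genes higher (4.4%) and 718 lower (3.78%). Both kinds together made 1604 genes with an unadjusted p under 0.05 (8.44%). That number rested on single libraries: it was 876 without wt_410, 1486 without ko_422 and 3145 without ko_426. The naive comparison had 516 such genes (2.71%) and 5 calls with edgeR (0.0263%), or 15 of 20869 with DESeq2 (0.0719%). Both counts of unadjusted p use a spread pooled over all groups of the series. With only the compared libraries in the fit, they were 356 at 7 d and 992 in naive mice, the opposite order. The larger number at 7 d is therefore not a result that holds across fits. The median log2 difference of all genes at 7 d was 0.02. For genes at 10 CPM or more the median SE was 0.157, and the 95% interval of 9247 of these 9812 genes (94.2%) lay within 2-fold. DESeq2 called 21 of 16331 genes with an adjusted p (0.129%); edgeR called 2 genes without ko_426, and 9 without wt_416.

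**Figure D2:**
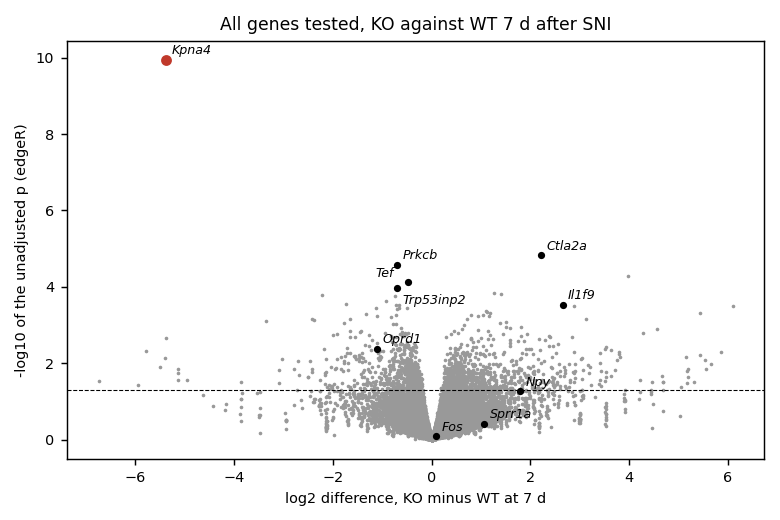
Log2 difference, KO minus WT at 7 d (x axis), against -log10 of the edgeR p-value before adjustment (y axis) for every gene tested. The dashed line marks a value of 0.05, and the red point is the gene called. Kpna4, at -5.38, stands alone in its p-value but not in its log2 difference, where Sost is at -6.74. Fos lies near the origin at 0.09.

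Among non-overlapping genes whose mean reached 1 CPM in a group, Ctla2a had the smallest p on the side higher in KO. Ctla2a encodes an inhibitor of cysteine proteases and is an endothelial marker here. It stood at 12.1, 20.2 and 6.65 CPM in KO and 2.43, 2.06 and 3.93 CPM in WT. Every KO library was above every WT library, with a log2 difference of 2.21 ± 0.37 (adjusted p = 0.140). Ctla2a passed with DESeq2 (adjusted p = 6.88e-05). In edgeR it passed without ko_426, its lowest KO library (adjusted p = 0.0104), and without wt_416, its highest WT library (adjusted p = 0.0448). It did not pass without ko_422 (edgeR adjusted p = 0.292) or without wt_410 (edgeR adjusted p = 0.722). The 20 endothelial markers summed to 258.5, 212 and 262 CPM in KO and 251, 128 and 247 CPM in WT, so their sum did not separate the genotypes. In naive mice Ctla2a differed by 0.22 ± 0.34.

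The rest of the genes that led this side included several of immunity. Il1f9, the cytokine interleukin 36 gamma, stood at 2.52, 1.51 and 1.17 CPM in KO and 0.294, 0.213 and 0.308 CPM in WT. It was low in both groups, and its difference was 2.65 ± 0.59 (adjusted p = 0.338). Ly96, the MD-2 partner of Toll-like receptor 4, was at 3.32, 2.86 and 2.03 CPM in KO and 1.18, 1.21 and 1.39 CPM in WT, a difference of 1.12 ± 0.26. Cd1d1, which presents lipids to natural killer T cells, was at 14.6, 16.4 and 7.51 CPM against 4.41, 6.76 and 5.77 CPM, a difference of 1.19 ± 0.28. Cd63, a tetraspanin of lysosomes and exosomes, was at 72.6, 102 and 57.1 CPM against 40.6, 40.5 and 51.5 CPM, a difference of 0.80 ± 0.19. Fcmr, the Fc receptor for IgM, was between 0.782 and 2.14 CPM in KO and at most 0.284 CPM in WT. In each of these the lowest KO library was ko_426. Macrophage markers, 26 of 26 tested, summed to 669.5, 1074 and 461 CPM in KO and 434, 378.1 and 725 CPM in WT, so that wt_416 lay above ko_426 and ko_420; their part in these differences was not tested. Without ko_422, Cd63 differed by 0.55 and Cd1d1 by 0.97.

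Genes outside immunity were also among the 12 that led the side higher in KO. Anxa9, an annexin, stood at 3.10, 3.02 and 3.83 CPM in KO and 1.03, 1.49 and 1.23 CPM in WT, a difference of 1.40 ± 0.29. Sox7, a transcription factor of endothelium, was at 10.7, 8.50 and 6.80 CPM in KO and 2.57, 4.05 and 5.08 CPM in WT, a difference of 1.15 ± 0.28. AI427809, Depdc7 and Fam163a differed by 1.26 ± 0.26, 1.04 ± 0.25 and 0.94 ± 0.22. In Fam163a the KO libraries at 10.7, 10.01 and 8.52 CPM were close together, above WT at 5.07, 3.77 and 6.39 CPM. DESeq2 also called Srsf6, a splicing factor, at 139, 146 and 145 CPM in KO and 117, 114 and 120 CPM in WT. Its difference was small but its libraries were tight: 0.29 ± 0.08 with an edgeR adjusted p of 0.477 and a DESeq2 adjusted p of 0.000157.

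On the side lower in KO, Prkcb followed Kpna4. Prkcb encodes protein kinase C beta, a calcium-dependent signalling kinase. It stood at 44.9, 45.9 and 49.8 CPM in KO and 82.4, 80.2 and 66.5 CPM in WT. The KO libraries were close together, and all lay below the WT libraries, as the choice of genes required. The difference was -0.70 ± 0.12 (adjusted p = 0.167). It passed with DESeq2 (adjusted p = 0.000434) and, in edgeR, without wt_416, its lowest WT library (adjusted p = 0.0330). It stayed at -0.69 without ko_422, but did not pass there (edgeR adjusted p = 0.292) or without wt_410 (edgeR adjusted p = 0.722). Of 21 genes of protein kinase C and other neuronal kinases tested, 19 were lower in KO with a median of -0.21. Of these, 2 had an unadjusted p under 0.05, as did 3.89% of all genes tested on the lower side. They were Prkcb and the calmodulin kinase gene Camk2b at -0.45 ± 0.16, or -0.30 without ko_422. The median moved to -0.11 without ko_422 and to -0.05 without wt_410.

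Tef, a clock-output transcription factor, was next, at 69.8, 64.6 and 73.6 CPM in KO and 90.2, 94.5 and 105 CPM in WT (-0.48 ± 0.09, adjusted p = 0.293). Trp53inp2, an autophagy regulator, stood at 145, 132 and 157 CPM in KO and 222, 252 and 237 CPM in WT. All 3 KO libraries lay well below WT, and the difference was -0.71 ± 0.14 (adjusted p = 0.323). Gtf3a, the factor TFIIIA that starts transcription of ribosomal 5S genes, was at 7.06, 7.86 and 10.2 CPM against 13.7, 15.2 and 13.3 CPM (-0.75 ± 0.16). Each of these was called by DESeq2, with adjusted p of 6.88e-05, 0.00547 and 0.0131.

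Several of the remaining genes encode neuronal surface and signalling proteins. Chrm4, the muscarinic M4 receptor, stood at 3.75, 3.02 and 4.30 CPM in KO and 6.91, 8.04 and 6.08 CPM in WT (-0.93 ± 0.20). Nell2, a secreted axon guidance protein, was at 7.57, 7.94 and 8.52 CPM in KO and 13.3, 13.7 and 10.9 CPM in WT (-0.66 ± 0.15). Slc8a2, a sodium-calcium exchanger, was at 3.39, 2.46 and 5.004 CPM in KO and 8.38, 13.3 and 5.54 CPM in WT (-1.33 ± 0.31). The adhesion genes Cntn5 and Pcdh11x differed by -1.73 ± 0.38 and -1.13 ± 0.26. Library wt_410 was the highest of the 6 for Slc8a2, Cntn5 and Pcdh11x, and without it the differences were -0.94, -1.15 and -0.93. The same held for Rgs9, a brake on G protein signalling, which stood at 1.30, 0.159 and 1.33 CPM in KO and 2.79, 9.32 and 2.93 CPM in WT, and its difference of -2.42 ± 0.59 was -1.60 without wt_410. Rom1, Fam167a and Dhdh differed by -0.66 ± 0.15, -0.70 ± 0.16 and -0.50 ± 0.11.

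**Figure D3:**
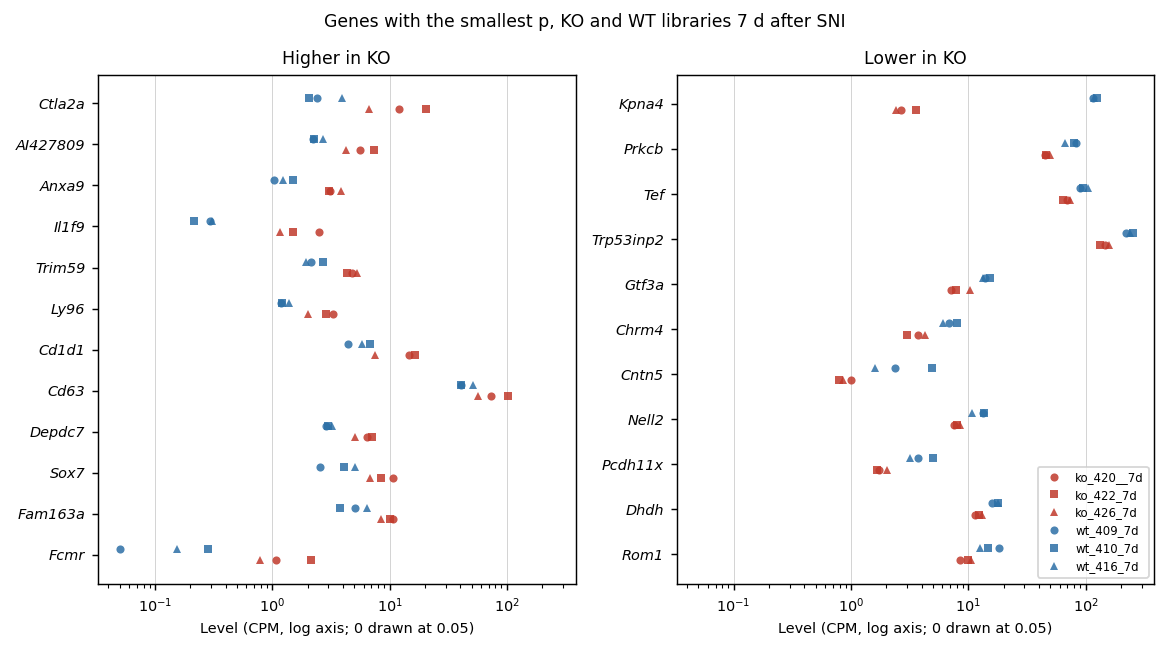
Level of 12 genes that led on the side higher in KO and 11 on the lower side in each 7 d library (x axis, CPM, log scale; WT blue, KO red, 1 symbol per library). Groups do not overlap because the genes were chosen so; Kpna4 is separated by far the widest gap, and Prkcb and Tef show tight KO libraries.

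The naive libraries give the same genes in mice that did not choose them. Of the 12 genes that led on the higher side, 11 were also higher in naive KO, and of the 11 that led on the lower side without Kpna4, 9 were also lower. Together that was 20 of 23 (87.0%), beside 53.2% of all genes tested. Of the 23, 9 had an unadjusted p under 0.05 in the same direction in naive mice, as did 345 of all 19010 genes tested. Among the 23, 0 were called in naive mice. Naive differences with an unadjusted p under 0.05 included Fam163a at 0.82 ± 0.20, Cd1d1 at 0.79 ± 0.24, Nell2 at -0.48 ± 0.12, Prkcb at -0.41 ± 0.11, Trp53inp2 at -0.32 ± 0.12 and Tef at -0.19 ± 0.08. Naive means were 71.0 CPM (KO) and 94.1 CPM (WT) for Prkcb, and 4.18 and 2.38 CPM for Fam163a. The change of the genotype difference with injury was tested as an interaction over all genes. It was 0.12 ± 0.30 for Fam163a (adjusted p = 0.966) and -0.18 ± 0.19 for Nell2, both within 1 SE of 0. For Cntn5 it was -2.12 ± 0.48, and its adjusted p of 0.948 was shared by Ctla2a, Prkcb and Tef. Depdc7, Cntn5 and Pcdh11x had the opposite sign in naive mice, at -0.17 ± 0.20, 0.39 ± 0.29 and 0.23 ± 0.20. Over all genes, 7 d and naive differences correlated with Spearman's rho = 0.102; this describes genes, which do not vary independently.

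**Figure D4:**
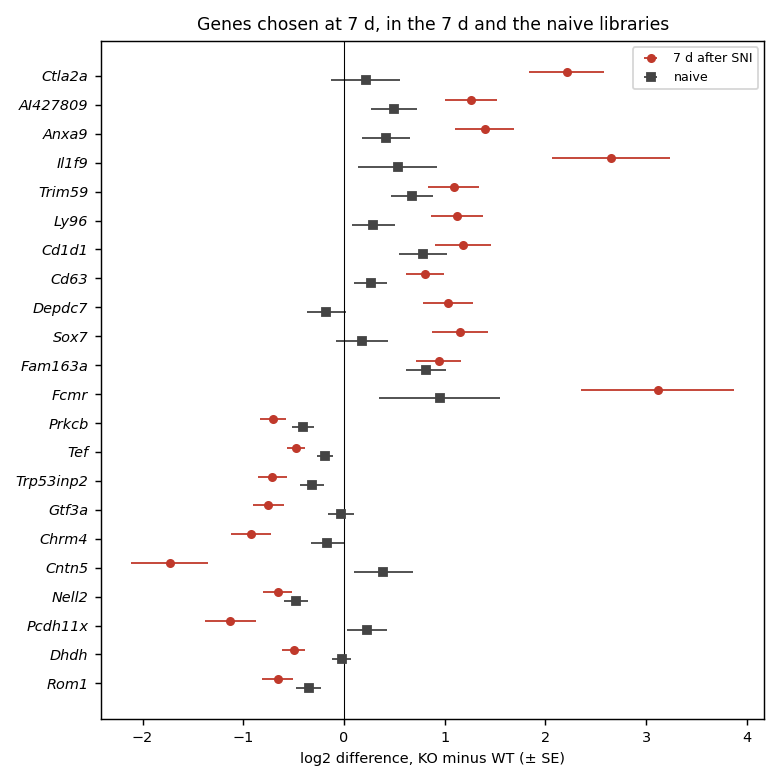
Log2 difference, KO minus WT (x axis, ± SE), of 22 of the genes chosen at 7 d, in the 7 d libraries (red circles) and in the naive libraries (grey squares). Naive values lie on the same side as at 7 d for 19 of the 22. The genes were chosen by their 7 d values, so the sizes are not to be compared.

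The AP-1 comparison asks whether transcripts of cFOS, its partners and its targets differ without importin alpha3. Fos stood at 7.35, 7.23 and 4.85 CPM in KO and 4.85, 5.05 and 8.39 CPM in WT. The groups overlapped, and the difference was 0.09 ± 0.36 with a 95% interval of -0.68 to 0.86. Jun was at 326, 249 and 207 CPM in KO and 223, 238 and 303 CPM in WT (0.03 ± 0.16). Both changed sign when single libraries were left out. Jund was at 240 CPM in ko_422 and between 108 and 125 CPM in the other 5 libraries. Fosl1, which encodes the cFOS relative FRA1, was at 5.91, 4.53 and 4.22 CPM in KO and 3.09, 2.13 and 3.54 CPM in WT, without overlap. Its difference was 0.74 ± 0.29 (unadjusted p = 0.0216, adjusted p = 0.571), it was 0.80 without ko_422 and 0.56 without wt_410 (unadjusted p = 0.0984), and in naive mice it was -0.23 ± 0.28. Of 18 AP-1 and Maf factor genes tested, 0 were called and 1, Fosl1, had an unadjusted p under 0.05; the median was 0.18, or 0.03 both without ko_422 and without wt_410, with 0 higher and 1 lower at that threshold in the second case. Of 25 AP-1 target genes, 0 were called and 2 were higher with an unadjusted p under 0.05 (4.55% of all genes tested were). Their median was 0.24, or 0.14 without ko_422. The 19 immediate-early genes had a median of -0.07 and no member with an unadjusted p under 0.05.

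To show AP-1 letters in promoters of injury genes, the 250 bases before the annotated start of each gene (RefSeq, GRCm38.p6) were searched for TGANTCA, whose reverse complement is TGANTCA again. The motif lay in 2217 of 32851 windows in all (6.75%), and in 6.03% of the 13128 tested genes with a window. Of 52 injury genes tested, 35 had a window and 2 (5.71%) held the motif. Both are printed on the gene's strand, 5′ to 3′, with the motif in capitals; Sprr1a (chr3:92485882-92486131, minus strand) holds 2 copies and Plaur (chr7:24462233-24462482, plus strand) 1.
Sprr1a promoter: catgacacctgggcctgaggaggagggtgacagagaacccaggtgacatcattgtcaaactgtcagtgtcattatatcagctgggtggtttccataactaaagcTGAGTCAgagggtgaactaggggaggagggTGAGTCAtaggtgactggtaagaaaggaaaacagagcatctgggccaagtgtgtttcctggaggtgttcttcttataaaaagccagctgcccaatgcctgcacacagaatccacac
Plaur promoter: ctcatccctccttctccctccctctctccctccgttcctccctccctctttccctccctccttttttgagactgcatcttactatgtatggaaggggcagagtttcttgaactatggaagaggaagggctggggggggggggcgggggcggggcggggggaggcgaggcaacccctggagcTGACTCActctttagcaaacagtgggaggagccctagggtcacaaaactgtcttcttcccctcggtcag
Sprr1a encodes a cornified-envelope protein that growing axons express, and Plaur the urokinase receptor. The level of Plaur was 28.2, 26.3 and 17.3 CPM in KO and 19.5, 23.5 and 26.6 CPM in WT, a difference of 0.04 ± 0.22. Over all genes with a window, 13128 in number, the 792 with the motif had a median difference of 0.03 and the 12336 without it 0.02. The share with an unadjusted p under 0.05 was 9.47% of the former and 8.09% of the latter. A match is a string of letters, not a bound site.

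The injury program itself varied more between libraries than between genotypes. Atf3 stood at 439, 412 and 226 CPM in KO and 214, 233 and 444 CPM in WT, all far above the naive WT mean of 15.5 CPM. Libraries ko_420, ko_422 and wt_416 were high and the other 3 low, so the difference was 0.28 ± 0.60. Sprr1a had the same high libraries, at 1696, 3216 and 1085 CPM in KO and 647, 669 and 1554 CPM in WT (1.06 ± 1.19). Csf1, the macrophage growth factor that injured neurons make, was at 219, 141 and 127 CPM in KO and 94.2, 101 and 196 CPM in WT (0.32 ± 0.25). Ecel1, a protease of injured neurons, was at 149, 89.5 and 75.7 CPM against 44.9, 70.3 and 130 CPM (0.36 ± 0.70). How much nerve tissue or how many injured neurons each library held is not given in the labels, and in bulk tissue more or fewer cells of a type cannot be told apart from more or less RNA per cell.

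As a group, injury-raised effectors leaned higher in KO without a call. Of 34 tested, 31 had a positive difference and the median was 0.35. With an unadjusted p under 0.05, 5 were higher (4.55% of all genes tested were) and none lower. Without ko_422 the median was 0.27, with 0 higher and 1 lower at that threshold, and without wt_410 it was 0.23 with 1 higher. Anxa1, an annexin that limits inflammation, led them at 52.5, 74.3 and 25.6 CPM in KO and 10.4, 16.5 and 28.3 CPM in WT (1.46 ± 0.46, adjusted p = 0.521). Library wt_416 lay above ko_426 there too, and without ko_422 the difference was 1.09. Fst, the activin inhibitor follistatin, was at 74.5, 76.7 and 33.9 CPM against 23.7, 25.5 and 46.9 CPM (0.95 ± 0.40). Tnfrsf12a, the TWEAK receptor, differed by 0.47 ± 0.20, and Stmn2, a regulator of microtubules in growing axons, by 0.36 ± 0.16, or 0.14 without ko_422. The 18 injury transcription factors tested had a median of 0.06, with 1 higher and 1 lower at an unadjusted p under 0.05. In naive mice the effectors had a median of -0.06.

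**Figure D5:**
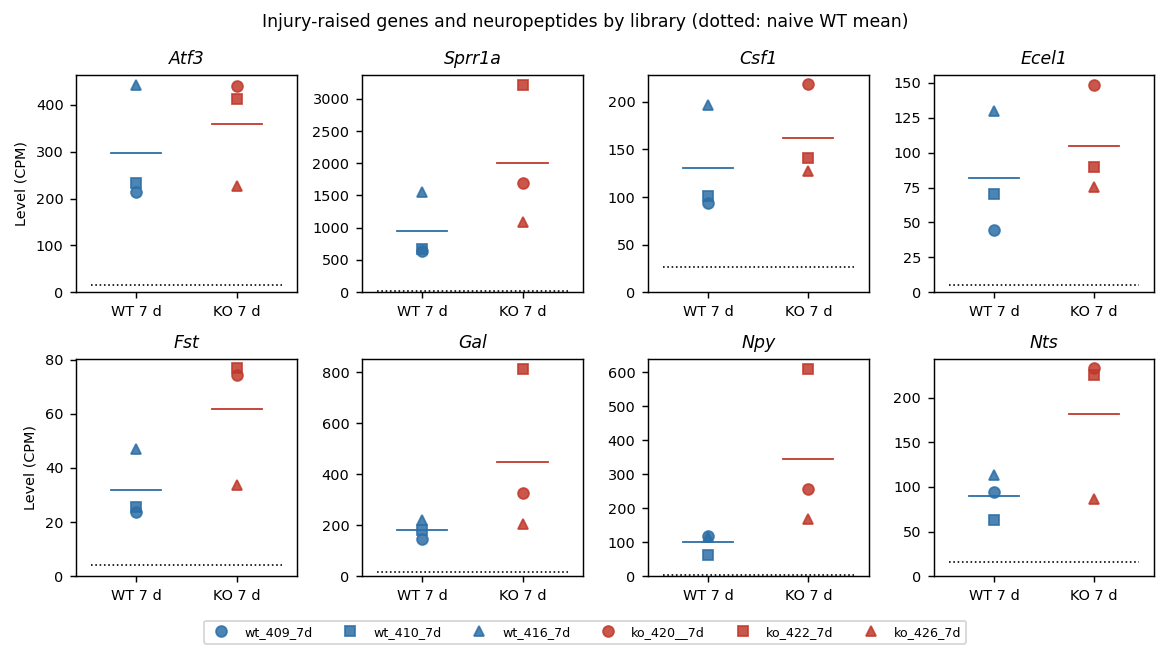
Level (y axis, CPM, from 0) of 8 injury-raised genes and neuropeptides in WT and KO libraries at 7 d; bars are means of 3 libraries, symbols single libraries, and dotted lines the naive WT mean. Atf3, Csf1 and Ecel1 overlap between genotypes, and Npy does not.

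Neuropeptide genes showed no common direction: of 18 tested, 10 were positive and 8 negative, and 0 were called. With an unadjusted p under 0.05, 2 were higher and 3 lower (4.55% and 3.89% of all genes tested were). The list median was 0.09, turned to -0.35 without ko_422 and was 0.26 without wt_410. The genes of 3 peptides had positive differences, and Gal and Npy were highest in ko_422. Gal, the gene of galanin, was at 327, 813 and 206 CPM in KO and 146, 180 and 222 CPM in WT (1.30 ± 0.54, adjusted p = 0.583). Npy, the gene of neuropeptide Y, was at 257, 611 and 168 CPM in KO and 119, 62.7 and 117 CPM in WT. Groups did not overlap for Npy, but its difference of 1.79 ± 0.85 had an unadjusted p of 0.0536. Nts, the gene of neurotensin, was at 233, 225 and 86.5 CPM in KO and 94.6, 62.7 and 113 CPM in WT (1.01 ± 0.43). Without ko_422, Gal differed by 0.55, Npy by 1.09 and Nts by 0.83, each with an unadjusted p above 0.1.

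Other peptide genes had negative differences. Tac1, which encodes substance P, stood at 107, 200 and 112 CPM in KO and 245, 313 and 120 CPM in WT (-0.69 ± 0.27, adjusted p = 0.564). The KO libraries ko_420 and ko_426 lay near wt_416, and wt_409 and wt_410 were high. Scg2, a granin of secretory vesicles, was at 240, 256 and 271 CPM in KO and 381, 461 and 266 CPM in WT (-0.53 ± 0.18). Calca, the gene of CGRP, differed by -0.38 ± 0.18, and Cartpt by -1.30 ± 0.58, or by -1.90 without ko_422 and -0.29 without wt_410. Without ko_422, Tac1 differed by -1.04, Scg2 by -0.53 and Calca by -0.57. Without wt_410 they differed by -0.39, -0.34 and -0.32, each with an unadjusted p above 0.05. Of 10 peptidergic nociceptor markers, 4 were positive and 6 negative with a median of -0.12. Without ko_422, 2 were positive and 8 negative with a median of -0.28. Without wt_410 both numbered 5 with a median of -0.04. In naive mice Scg2 differed by -0.39 ± 0.16 (unadjusted p = 0.0243) and Tac1 by -0.31 ± 0.23.

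Opioid, cannabinoid and GABA receptor genes numbered 18 tested, of which 3 were lower in every KO library than in every WT library (3.78% of all genes tested were). These were the classical opioid receptor genes, and Oprm1 and Oprk1 among them were named after their values were seen. Oprd1, the delta receptor, stood at 4.76, 3.02 and 5.47 CPM in KO and 9.34, 12.3 and 7.01 CPM in WT (-1.11 ± 0.34, unadjusted p = 0.00412, adjusted p = 0.517). Oprm1, the mu receptor and target of morphine, was at 5.41, 1.11 and 5.32 CPM against 6.18, 15.3 and 9.93 CPM (-1.40 ± 0.48, adjusted p = 0.556). Oprk1, the kappa receptor, was at 1.66, 1.67 and 2.19 CPM against 2.94, 3.20 and 2.31 CPM (-0.62 ± 0.28). None of them was called. For Oprm1 the lowest library was ko_422 and the highest wt_410, and without ko_422 or wt_410 it differed by -0.97 and -1.02; Oprd1 then differed by -0.90 and -0.89. In naive mice the differences were -0.16 ± 0.27 for Oprd1, -0.02 ± 0.39 for Oprm1 and 0.18 ± 0.22 for Oprk1.

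Over the whole list, 15 of 18 were negative and 0 were called. At an unadjusted p under 0.05, 5 were lower and 1 higher (3.89% and 4.55% of all genes tested were). The list median was -0.38, or -0.17 without ko_422 and -0.18 without wt_410. The GABA type A subunit gene Gabra3 differed by -0.67 ± 0.25 and the type B receptor gene Gabbr1 by -0.37 ± 0.16. Gabra3 differed by -0.34 without wt_410, and Gabbr1 by -0.20 without ko_422. The higher member was Gabrg1, a GABA type A subunit, at 88.9, 72.2 and 43.1 CPM in KO and 42.4, 27.4 and 43.96 CPM in WT (0.84 ± 0.25, adjusted p = 0.517). Here wt_416 lay above ko_426, and without ko_422 the difference was 0.80.

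Ion channel lists had negative medians without a call, and the genotypes did not separate: by list score ko_422 was lowest and wt_410 highest in all 4 lists, and ko_426 lay above wt_416 in each. Of 32 potassium channel genes tested, 30 were negative with a median of -0.28. With an unadjusted p under 0.05, 5 were lower (3.89% of all genes tested were). Without ko_422 the median was -0.14 with 2 such genes, and without wt_410 it was -0.17 with 4. Kcnn2, a calcium-activated channel, stood at 10.2, 7.62 and 14.7 CPM in KO and 16.3, 18.2 and 15.1 CPM in WT (-0.61 ± 0.18, adjusted p = 0.517). Kcnk18, the TRESK leak channel that damps excitability, was at 5.69, 4.37 and 10.1 CPM against 13.1, 13.3 and 8.85 CPM (-0.81 ± 0.29). Kcnd2 and Kcnt2 differed by -1.35 ± 0.40 and -0.52 ± 0.22, without overlap of the groups, and Kcnd2 by -0.85 without wt_410. In naive mice the list median was -0.04.

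Among sodium, calcium, HCN and sensory transduction channels, most genes named overlapped between genotypes. Scn10a, the nociceptor sodium channel Nav1.8, stood at 612, 402 and 943 CPM in KO and 962, 1263 and 778 CPM in WT (-0.62 ± 0.25, adjusted p = 0.571), and differed by -0.36 without ko_422 and -0.42 without wt_410. Trpv1, the capsaicin receptor, was at 84.7, 77.7 and 110 CPM against 124, 256 and 102 CPM (-0.82 ± 0.25), and differed by -0.32 without wt_410. Trpa1, the irritant receptor, differed by -0.77 ± 0.25, or by -0.42 without wt_410, and Scn9a by -0.38 ± 0.18, or by -0.21 without ko_422 and -0.17 without wt_410. Cacnb3, a calcium channel subunit, did not overlap, at 349, 375 and 393 CPM in KO and 446, 504 and 428 CPM in WT (-0.30 ± 0.11). The 12 sodium channel genes had a median of -0.21 with 2 lower at an unadjusted p under 0.05. The 20 calcium and HCN channel genes had -0.24 with 1, and the 21 sensory transduction channel genes -0.22 with 3. Over all genes tested, 3.89% were lower at that threshold. Without ko_422 these medians were -0.12, -0.15 and -0.11. Without wt_410 they were -0.12, -0.16 and -0.07, with 0 members under that threshold in each. Among cell type markers, all 11 of non-peptidergic nociceptors were negative (median -0.34), but 4 were positive without wt_410 (median -0.06). Of 10 itch neuron markers, 3 were positive and 7 negative with a median of -0.15. The itch receptor gene Mrgprx1, at -0.99 ± 0.36, was lower with an unadjusted p under 0.05, and Nts was higher (3.89% and 4.55% of all genes tested were). Without wt_410, 5 of the itch neuron markers were positive and 5 negative with a median of 0.10. Pan-neuronal markers had a median of 0.06, or -0.06 without ko_422. Syt1, a vesicle protein gene among them, differed by -0.53 ± 0.21, or by -0.20 without wt_410.

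Clock genes were on the lower side more than the higher. Over all genes tested, 3.89% were lower in KO with an unadjusted p under 0.05. Of 19 clock genes tested, 6 were (Tef, Per2, Nr1d1, Hlf, Per3 and Dbp), with 0 higher and 0 called. These genes peak at neighbouring times of the daily cycle in mouse tissues. The labels do not give the hour of dissection, and its part in these values was not tested. Nr1d1, the repressor REV-ERB alpha, stood at 14.5, 9.85 and 13.8 CPM in KO and 18.9, 21.1 and 28.3 CPM in WT (-0.84 ± 0.30, adjusted p = 0.562). Per2 was at 9.44, 8.10 and 13.9 CPM against 17.3, 13.2 and 24.2 CPM (-0.80 ± 0.27). Dbp was at 4.69, 10.2 and 4.93 CPM against 12.4, 9.60 and 14.7 CPM (-0.89 ± 0.41), or -1.35 without ko_422. Library wt_416 was the highest of the 6 for each of these. Arntl, the activator BMAL1, whose transcript runs opposite to these, was at 8.36, 2.94 and 6.88 CPM in KO and 3.09, 5.90 and 2.85 CPM in WT (0.62 ± 0.37), and 0.94 without ko_422. The list median was -0.15, or -0.18 without ko_422 and -0.35 without wt_410, when 9 were lower and 1 higher at that threshold. By list score wt_416 stood apart at 0.32, with wt_409 at 0.03 and wt_410 at -0.06. The KO libraries were at -0.13, -0.15 and -0.02, so wt_410 lay below ko_426. In naive mice the list median was -0.05. In naive mice Dbp differed by -0.67 ± 0.33, Arntl by 0.60 ± 0.31, and Hlf by 0.42 ± 0.32.

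Heat shock genes gave 2 members with an unadjusted p under 0.05 among 14 tested, both lower (3.89% of all genes tested were). Dnajb1, an HSP40 co-chaperone, stood at 72.1, 69.0 and 54.9 CPM in KO and 97.9, 85.3 and 88.5 CPM in WT (-0.47 ± 0.14, adjusted p = 0.517). Hspa8, the constitutive HSP70, differed by -0.31 ± 0.15, or by -0.19 without ko_422. In naive mice Dnajb1 differed by -0.27 ± 0.12 (unadjusted p = 0.0373). The list median was -0.12.

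Macrophage and chemokine genes stood higher in KO on average, and much of that lay in ko_422. Of 26 macrophage markers, 24 were positive with a median of 0.62. Without ko_422, 18 were positive and the median was 0.18, and without wt_410, 22 were positive and it was 0.41. Trem2, a lipid-sensing receptor of tissue macrophages, was the 1 marker with an unadjusted p under 0.05 (4.55% of all genes tested were higher at that threshold). It stood at 5.84, 9.85 and 4.46 CPM in KO and 2.43, 1.78 and 3.46 CPM in WT (1.39 ± 0.35, adjusted p = 0.406), and differed by 1.01 without ko_422. C1qa, a complement component, was at 44.5, 113 and 29.4 CPM against 31.5, 22.5 and 57.1 CPM (0.75 ± 0.53), or -0.0021 without ko_422. Csf1r, the receptor of CSF1, differed by 0.30 ± 0.49, and Ctss, a lysosomal protease, by 0.84 ± 0.45. Of 32 chemokine and cytokine genes, 26 were positive (median 0.40). With an unadjusted p under 0.05, 5 were higher (4.55% of all genes tested were). Without ko_422 the median was 0.16 with 1 such gene, and without wt_410 it was 0.33 with 1. Ccl7, a monocyte attractant, was at 2.81, 8.02 and 0.704 CPM in KO and 1.18, 1.64 and 1.62 CPM in WT (1.37 ± 0.62), or 0.26 without ko_422. Interferon-stimulated genes, 30 in number, had a median of 0.22, which turned to -0.15 without ko_422. Lymphocyte markers had the highest list median, 1.04 over 16 genes, but 8 of these were under 1 CPM in all 6 libraries and the median was 0.24 without ko_422.

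Glial and vascular lists gave no call. Ngfr, the p75 neurotrophin receptor of sensory neurons and repair Schwann cells, stood at 902, 750.04 and 1031 CPM in KO and 1534, 1274 and 1059.8 CPM in WT (-0.53 ± 0.19, adjusted p = 0.562). Shh, the ligand sonic hedgehog, was at 39.6, 41.3 and 31.8 CPM against 31.2, 20.1 and 23.9 CPM (0.59 ± 0.20), and neither overlapped between groups. Tnc, an extracellular matrix protein of repair, differed by 1.08 ± 0.47. The satellite glia genes Fabp7 and Apoe differed by 0.46 ± 0.22 and 0.32 ± 0.19, with Fabp7 at 0.61 ± 0.19 in naive mice (unadjusted p = 0.00564). Of 14 satellite glia markers tested, 9 were positive and 5 negative with a median of 0.06, and 0 had an unadjusted p under 0.05. That median was 0.26 without ko_422 and -0.02 without wt_410. Myelinating Schwann markers had a median of 0.18, which was 0.37 without ko_422 and -0.04 without wt_410. Endothelial markers had a median of 0.17, or 0.30 and -0.07 in the same order. Of 20 tested, 3 were higher with an unadjusted p under 0.05 (4.55% of all genes tested were). Among them was Esam at 0.45 ± 0.21, or 0.26 without wt_410. The pericyte channel gene Kcnj8 was low throughout, at 0.505, 0.476 and 1.02 CPM in KO and 0.0735, 0.213 and 0.231 CPM in WT (1.90 ± 0.58). It was the 1 member with an unadjusted p under 0.05 among 11 mural markers tested. Of these, 6 were positive and 5 negative with a median of 0.18, or 0.24 without ko_422 and -0.0055 without wt_410.

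Ribosomal protein genes followed ko_422. Of 30 tested, 29 were positive with a median of 0.39, whereas without ko_422 27 were negative with a median of -0.12. Their summed level was 4826 CPM in ko_422 and between 2027 and 2626 CPM in the other 5 libraries. Red blood cell genes behaved alike, with Hbb-bs at 213 CPM in ko_422 and between 16.7 and 80.4 CPM elsewhere. Nuclear respiratory chain genes had a median of 0.19, which turned to -0.14 without ko_422. Over all 49 lists, which hold 774 tested genes, Kpna4 was the 1 member called, and list medians ran from -0.38 to 1.04.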

How the data were processed

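The deposited values are whole-number read counts per gene, made by the authors from polyA RNA-seq of dorsal root ganglia, per the labels. STAR 2.4.2a0 on GRCm38, HTSeq 0.6.1p1 for counting, DESeq2 1.10.1, cutadapt and bcl2fastq 2.17.1.14 appear as names in the notes on processing by the submitters. Neither the gene annotation used nor whether strand was counted is given in the sources used here, so overlapping, antisense and near-identical genes are uncertain. The normalized file, counts divided by 1 factor per library, was not used.

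Counts of all 18 libraries were fitted in edgeR 4.0.16 (R 4.3.3) with 1 mean per group: TMM scaling, a low-count filter (filterByExpr with min.count 10 and min.total.count 15), robust dispersions and the two-sided quasi-likelihood F test. This left 12 residual degrees of freedom and 19010 of 21288 genes. Adjusted p is Benjamini-Hochberg over all genes tested, and calls are at 0.05; SE is the log2 difference divided by the root of F. Alternatives were DESeq2 1.42.0, limma 3.58.1 voom with library weights, DESeq2 size factors, no filter, the 6 libraries alone, an exon-length offset (GENCODE M21) and each library left out. Groups came from the labels, and totals were 12565448 to 14157742 counts at 7 d and 18634506 to 21585680 in naive mice; replicates, not depth alone, set the precision.

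Genes named were Kpna4, Fos, the importin alpha family, the 12 smallest p in each direction (mean at least 1 CPM, groups that do not overlap, no predicted model), every call of edgeR or DESeq2, and from each of the 49 lists the 2 smallest p and the 2 highest levels. The text names part of these, and Jund, Csf1, Fst, Ecel1, Cartpt, Oprm1, Oprk1, Gabra3, Kcnt2, Kcnk18, C1qa, Ctss, Csf1r, Ccl7, Nr1d1, Hlf, Per3, Dbp, Arntl and Tnc were list members named after their values were seen. Some genes that the rule takes are not reported here. Promoters printed are those of injury genes with the motif. The members, lists and tests were chosen with earlier results of these data known. List scores average log2(CPM + 0.5). Counts were simulated for KO against WT at 7 d (18262 genes). In them edgeR recovered 13.43% of 67 genes changed 1.5-fold, 65.67% of 67 changed 2-fold and 92.42% of 66 changed 4-fold. It made 5 calls on unchanged genes. The changed genes were drawn only from those above a minimum fitted WT count at 7 d, so the rates do not cover genes of lower counts. Whether the real 7 d libraries, among which ko_422 stood apart, reach these rates was not tested.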

Additional observations from a re-analysis of the deposited data

Results flagged for a closer look

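Groups of 3 are too small for a check of single libraries, so only naive groups of 4 were checked, for a library whose gap to its nearest neighbour, as a share of the group's range, exceeds Dixon's critical value of 0.829. Of 184 pairs of a gene named above and a naive group, 16 did; chance marks about 1 in 20.

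Naive KO library ko_39 was far above the other 3 naive KO libraries in injury genes: Atf3 at 43.3 CPM, Sprr1a at 112 CPM and Npy at 16.5 CPM. Library ko_40 was far above its group in Rgs9 (5.90 CPM), Cartpt (19.1 CPM) and Fabp7 (331 CPM), and below it in Hspa8 (493 CPM). In ko_35, Kcnt2 stood at 11.2 CPM, above its group.

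Among naive WT libraries, wt_48 was above its group in Oprm1 (13.6 CPM) and Kcnd2 (2.87 CPM) and below it in Hlf (5.08 CPM). Library wt_28 was above its group in Jund (117 CPM) and below it in Oprd1 (10.9 CPM). Library wt_67 was above its group in Camk2b (83.0 CPM) and was alone in holding reads of Gm37558 (0.0531 CPM), and wt_44 was below its group in AI427809 (1.17 CPM). Naive differences of these genes rest partly on those libraries, except for Gm37558. Its naive KO libraries were all at 0.945 CPM or more, far above wt_67.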

How the results depend on the processing

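The count of calls at 7 d was 1, and 21 with DESeq2; leaving out single libraries gave 1 to 9. The count of unadjusted p under 0.05 was 1604, and 356 with the compared libraries alone; leaving out single libraries gave 876 (wt_410) to 3145 (ko_426). In naive mice the 5 calls became 15 with DESeq2, 8 with the compared libraries alone, 8 with the exon-length offset and 54 with library weights, and 516 unadjusted became 992 alone and 1825 with library weights. The fit of compared libraries alone has fewer residual degrees of freedom and takes its spread from those libraries only. The cause of these shifts was not tested. Kpna4 was called under every alternative run. No paired analysis was possible because library numbers are not shared between groups.

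Of 1102 values of named genes under alternatives, 20 turned sign. With the exon-length offset Fos was -0.0090, Jun -0.028 and Plaur -0.049, and with library weights Jund was -0.077. Leaving out single libraries, Kpna1 ran from -0.089 to 0.13, Kpna3 from -0.012 to 0.28, Kpna6 from -0.37 to 0.024, Fos from -0.050 to 0.39, Jun from -0.16 to 0.17, Jund from -0.15 to 0.54, Plaur from -0.092 to 0.23, C1qa from -0.0021 to 1.21 and Hbb-bs from -0.15 to 1.36. The median of 14 of the 49 lists changed sign without ko_422, and likewise of 14 without wt_410. With 3 libraries a group, 13.43% of simulated 1.5-fold changes were recovered, so differences of that size may be missed. Larger ones may be missed too: Ctla2a, at 2.21 on the log2 scale, was not called (edgeR adjusted p = 0.140).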
